A study of Rattus norvegicus with 18 samples.

Results

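The genes described here are the enzymes that attach ubiquitin to proteins and take it off again, as measured in rat lung after clamping of the left hilum. They were chosen by symbol: every gene on the array whose name begins with Ube2, Ube3, Fbxo or Fbxw, or with Uba, Usp, Rnf or Cul followed by a digit, together with Mylip and with 1 gene left out. This gave 141 genes, measured by 178 probe sets, among 10411 genes with a single symbol. Where a gene had several probe sets, the one of highest mean signal stood for it. A filter on low signal (at least 3 arrays above a signal of 173.6) was passed by 126 of the 141, beside 7726 genes in all, and tests cover those 126.

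The animals were male Sprague-Dawley rats, and each of the 18 lungs was hybridised to its own Affymetrix rat 230A array. In the operated rats, anesthetised and mechanically ventilated, the left hilum was clamped for 2 h, and the left lung was then perfused again for 30 min (3 lungs) or 3 h (3 lungs). Right lungs of the operated rats, never clamped, were taken at 30 min (3 lungs) and 3 h (3 lungs), and 6 lungs of unoperated rats, taken directly after anesthesia and sacrifice, were the controls. All operated groups share tracheotomy, opening of the left chest and hours of ventilation, which the labels do not give for the controls, and the side of the control lungs is not given. The clamp and the side therefore cannot be told apart in left against right, nor can surgery and time on the ventilator be told apart from the clamp in any comparison with control. The tissue was whole lung, so fewer cells of a type and less RNA per cell cannot be told apart.

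Ubiquitin is a small protein that is joined to other proteins in a relay. An E1 enzyme activates it, an E2 enzyme carries it, and an E3 ligase chooses the substrate, usually through a RING domain, which holds the E2 next to the substrate, or a HECT domain, which takes the ubiquitin over. Cullins are scaffolds for the largest family of RING ligases, and F-box proteins are the parts of cullin ligases that bind the substrate. Ubiquitin-specific proteases (Usp) cut the chains off. Chains mark proteins for the proteasome, for sorting at the endosome or for signalling, and in lung epithelium they control, among others, the turnover of sodium channels and surfactant proteins. Some of the enzymes act on relatives of ubiquitin: Uba2 on SUMO, Uba3, Ube2m and Ube2f on NEDD8, and Ube2l6 on ISG15.

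The lung label was borne out by its markers. The mean log2 signal of 10 alveolar type II genes was 12.3 to 12.4 in the controls and 11.3 to 12.0 in left lungs at 3 h, and that of 7 alveolar type I genes was 11.9 to 12.0 in the controls and 11.3 to 11.4 in right lungs at 30 min, where 5 of the 7 were called lower. Other cells varied with the groups. For 9 cardiac muscle genes that mean was 6.0 to 8.65 in controls and, at 3 h, 5.91 to 6.39 in left and 8.13 to 10.3 in right lungs. For 5 erythroid genes it was 9.55 to 9.96 in controls and 10.3 to 10.9 in right lungs at 30 min, and 7 neutrophil genes had means of 8.44 to 10.2 in operated lungs and 7.88 to 8.51 in controls. Of the erythroid genes 3 were called higher in right lungs at 30 min, and 1 was called lower on each side at 3 h. Of the neutrophil genes 3 were called higher in every operated group, and 1 was called lower in each group but right lungs at 3 h. For 10 lymphocyte genes the mean was 9.03 to 9.35 in controls and 8.35 to 9.11 in operated lungs, with 4 and 6 called lower in left lungs and 4 and 7 in right lungs (30 min and 3 h) and 0 called higher. The part of these cells in the results was not tested. The actin 3' to 5' signal ratio, which rises with RNA degradation, was 4.81 and 2.3 in replicates 1 and 3 of the left lungs at 30 min, 2.93 in replicate 3 of the right lungs at 30 min, and 1.31 to 1.78 elsewhere. The median of all tested probe sets was lower in left lungs at 3 h than in controls by 0.12 on the log2 scale, a shift that centring each array reduced to 0.01, and changes in that group are to be read relative to it.

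Against control, the conjugating and deubiquitinating enzymes moved in both directions and at shares mostly near those of all genes. In left lungs at 30 min 11 members were higher and 10 lower (adjusted p under 0.05), beside 8.65% and 9.51% of all genes tested. At 3 h, 20 members (15.9% of those tested) were higher and 24 (19.0%) lower, beside 13.5% and 24.1% of all genes. Right lungs had 8 higher and 3 lower at 30 min, beside 5.93% and 6.3%, and 9 higher and 13 lower at 3 h, beside 7.75% and 12.6%. The median log2 difference of the members at 3 h was -0.04 in left and -0.01 in right lungs, beside -0.13 and -0.05 over all genes. Lack of overlap with the controls was common. At left 30 min, left 3 h, right 30 min and right 3 h it held for 39, 49, 24 and 31 of the 126 members. The shares of all genes were 26.4%, 36.8%, 20.7% and 25.3%. Of the 126 members, 76 were called in none of these comparisons, 18 in exactly 1, 21 in 2, 6 in 3 and 5 in all 4, with the same 6 controls behind every one.

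Single arrays bore on these counts. Without replicate 1 of the left lungs at 3 h, 27 members were called there (14 higher, 13 lower), and in the right lungs at 3 h 14 and 13 were called without replicates 2 and 3. At 30 min, 6 members were called in right lungs without replicate 1, and 6 without replicate 3. With the 3 arrays of raised actin ratio removed, which leaves 1 left and 2 right lungs at 30 min, 3 members were called in left and 7 in right lungs at that time. Centring the arrays turned the split of higher to lower calls at left 3 h from 20 and 24 to 30 and 19, and at right 3 h from 9 and 13 to 13 and 7; at left 30 min it gave 12 and 7, and quantile normalization gave 10 and 10 at right 3 h.

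**Figure D1:**
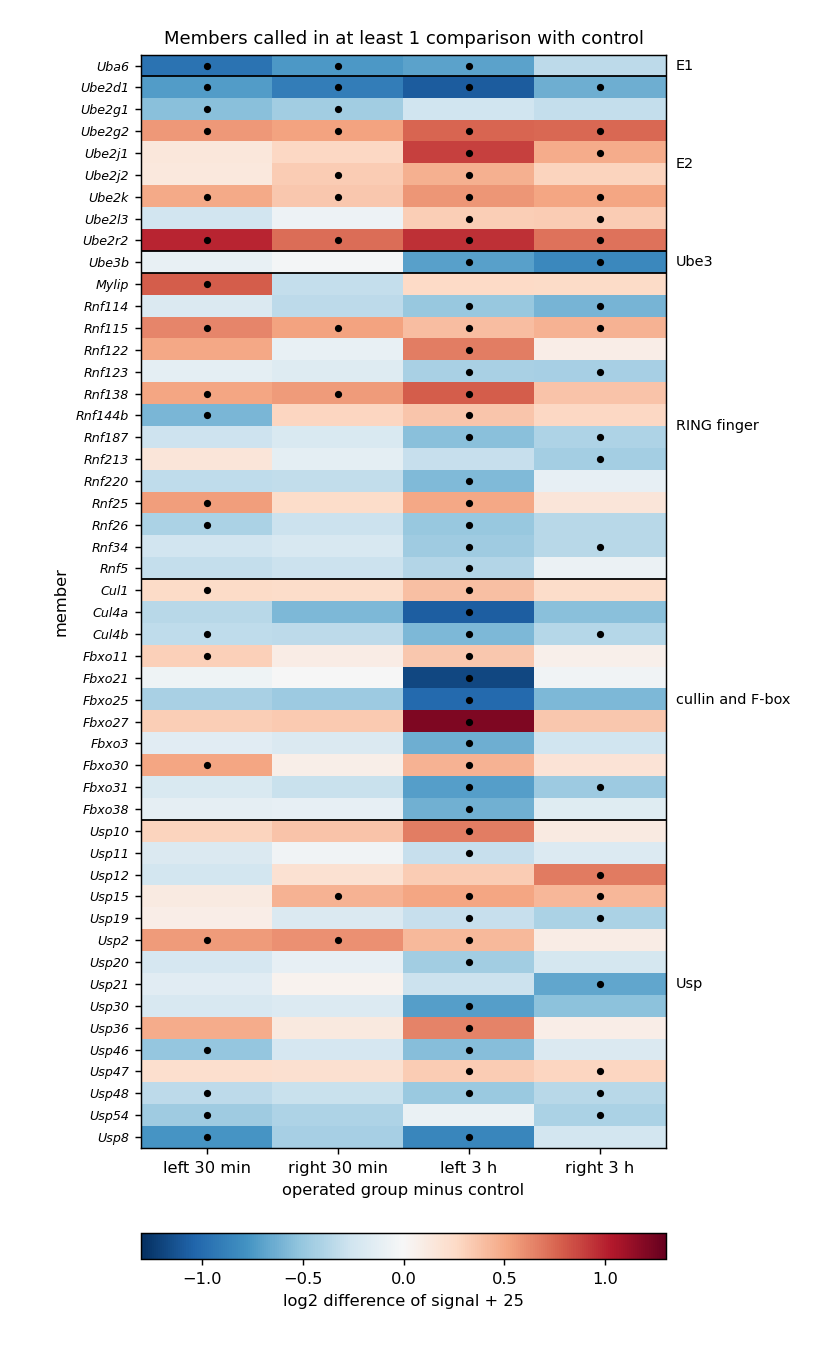
Log2 difference of signal + 25 between each operated group (columns) and the 6 controls for the 50 members called in at least 1 of the 4 comparisons (rows, grouped by role); red is higher, blue lower, and a black dot marks an adjusted p under 0.05. Ube2g2, Ube2k, Ube2r2 and Rnf115 are red with a dot in every column, Ube2d1 is blue with a dot in every column, and Rnf144b changes colour between left 30 min and left 3 h.

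At 30 min the clamped and the unclamped lung differed in Mylip and Rnf144b. These are 2 RING-type ligases that moved in opposite directions, and they were 2 of only 4 genes among 7726 that differed between the sides at that time (0.0129% higher in left lungs, 0.0388% lower). Mylip is the ligase that sends the LDL receptor to the lysosome, and its gene is a target of the sterol-sensing LXR receptors. Its signal was 685, 759 and 896 (lowest, median and highest of 6) in controls, 1379, 1222 and 1473 in left lungs at 30 min and 708, 558 and 594 in right lungs at 30 min. All 3 left lungs were above every control, and 2 of the 3 right lungs were below every control. The left lungs were 1.73-fold above control (log2 0.79 ± 0.12 SE, adjusted p = 0.000241) and 2.15-fold above the right lungs (log2 1.10 ± 0.14, adjusted p = 0.00324). Right lungs were at -0.31 ± 0.12 against control, with an adjusted p of 0.0944. At 3 h Mylip read 1004, 1003 and 787 in left lungs and 1057, 858 and 857 in right lungs, which overlap, and the log2 difference between the sides was 0.01 ± 0.14.

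Rnf144b, a ligase of the RING-between-RING type known as a target of p53, ran the other way. Controls were at 611, 732 and 781 (lowest, median, highest), left lungs at 30 min at 531, 471 and 402, and right lungs at 30 min at 809, 898 and 911. The 3 groups did not overlap: every left lung lay below every control, and every right lung above. The right lungs were not called against control, either at 30 min or at 3 h (at 3 h log2 0.27 ± 0.12, adjusted p = 0.112). Left lungs were 1.51-fold below control (log2 -0.59 ± 0.12, adjusted p = 0.00213) and 1.83-fold below right lungs (-0.87 ± 0.14, adjusted p = 0.015). By 3 h the left lungs read 823, 1115 and 870, all above the controls (1.29-fold, adjusted p = 0.0218), and right lungs read 932, 810 and 865. Between 30 min and 3 h, left lungs rose 1.94-fold in Rnf144b (log2 0.96 ± 0.14, adjusted p = 0.000916) and fell 1.45-fold in Mylip (-0.54 ± 0.14, adjusted p = 0.0425). Rnf144b was the only member called lower in one comparison with control and higher in another.

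The change of the side difference between the times was itself tested, and passed for these same members alone: -1.09 ± 0.20 (adjusted p = 0.0213) for Mylip and 0.96 ± 0.19 (adjusted p = 0.0443) for Rnf144b, beside 0.0259% of all genes lower and 0.207% higher. The Mylip difference between the sides at 30 min kept its call without each of the 18 arrays in turn, at log2 1.03 to 1.20. That of Rnf144b lost it without replicate 2 or 3 of either side (adjusted p 0.0575 to 0.126, log2 -0.77 to -0.88). The fall of Mylip from 30 min to 3 h was no longer called without 10 of the 18 arrays, 5 of them controls (adjusted p 0.0513 to 0.166). With the replicate number as a block, the change for Rnf144b was 0.96 ± 0.20 and no longer called (adjusted p = 0.0888), while that for Mylip and both side differences at 30 min kept their calls. The change of the side difference lost its call without 6 arrays for Mylip (adjusted p 0.0542 to 0.0777) and without 15 for Rnf144b (0.0626 to 0.149). Arrays with a raised actin ratio are 2 of the 3 left and 1 of the 3 right lungs at this time. The arrays of ordinary ratio read 1222 in the left lung and 708 and 558 in the right lungs for Mylip, and 471 against 809 and 898 for Rnf144b. With those arrays alone the log2 side difference was 0.93 ± 0.21 for Mylip and -0.82 ± 0.20 for Rnf144b, in the same directions and not past the threshold (adjusted p = 0.656 and 0.715).

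**Figure D2:**
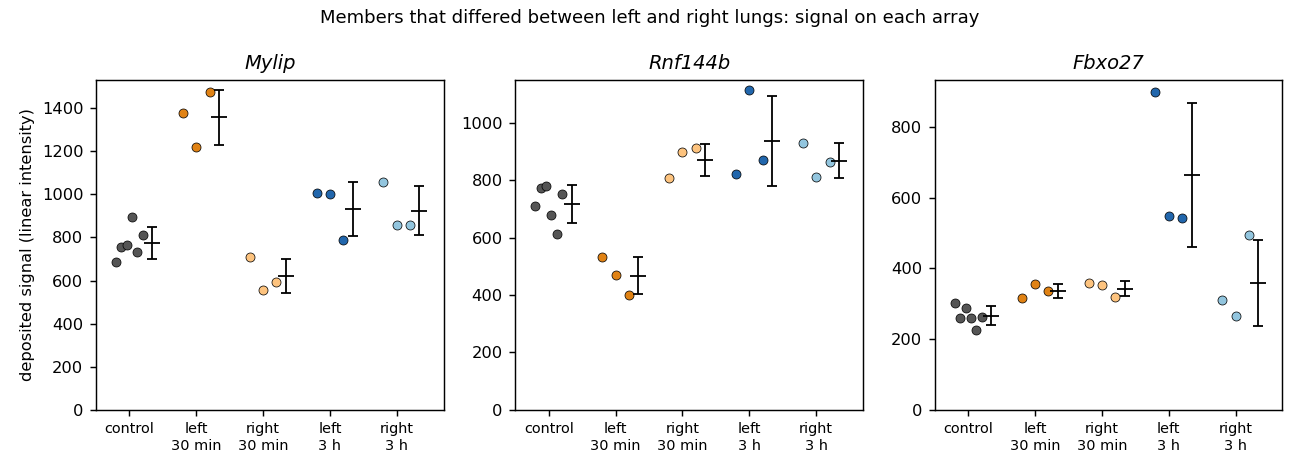
Deposited signal (linear intensity, axis from 0) of Mylip, Rnf144b and Fbxo27 on each of the 18 arrays, by group; dots are arrays and the bar beside them is the mean ± SD. Mylip is highest and Rnf144b lowest in left lungs at 30 min. The right lungs at that time lie above all controls in Rnf144b and, but for 1 of 3, below them in Mylip, and Fbxo27 is highest in left lungs at 3 h.

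The promoters of Mylip and Rnf144b are shown because the pair moved oppositely in the same lungs. Both genes are on chromosome 17, on the minus strand. The sequences are the 250 bases before the transcript start that the RefSeq promoter table uses in build GRCr8, at chr17:19514472-19514721 and chr17:17769038-17769287, written 5′ to 3′ along the gene, with CG dinucleotides in capitals.
Mylip: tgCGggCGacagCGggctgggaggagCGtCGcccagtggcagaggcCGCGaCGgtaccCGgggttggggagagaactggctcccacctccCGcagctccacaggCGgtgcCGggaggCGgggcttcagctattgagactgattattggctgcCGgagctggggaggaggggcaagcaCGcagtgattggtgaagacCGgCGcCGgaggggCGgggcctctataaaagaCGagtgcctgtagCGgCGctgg
Rnf144b: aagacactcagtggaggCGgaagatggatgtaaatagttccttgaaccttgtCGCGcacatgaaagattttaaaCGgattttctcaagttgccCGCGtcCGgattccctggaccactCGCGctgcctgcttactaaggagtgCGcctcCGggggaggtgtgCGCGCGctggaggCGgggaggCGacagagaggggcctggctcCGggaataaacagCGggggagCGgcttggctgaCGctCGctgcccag
The start used is not the outer end of either gene in RefSeq. Rnf144b spans 17637564 to 17786685, so its window lies inside the gene, and Mylip spans 19492826 to 19514490, so its window overlaps the gene's end. They hold 22 and 21 CG dinucleotides, and their G and C content is 68.4% and 60.4%. None of 7 motifs searched on both strands (listed with the promoters of the whole group further on) was found in either window.

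The members that moved in all 4 operated groups were mostly E2 enzymes. Ube2r2, Ube2g2, Ube2k and the RING ligase Rnf115 were higher than control in left and right lungs at both times, and Ube2d1 was lower in all 4 groups. Over all genes, 212 (2.74%) were higher and 206 (2.67%) lower in all 4. The comparisons share their controls.

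Ube2r2, an E2 that works with cullin ligases of the SCF type, had the largest rise among them in left lungs. It read 456, 491 and 591 (lowest, median, highest) in controls, 900, 1159 and 1026 in left lungs at 30 min, 918, 1132 and 934 in left lungs at 3 h, 765, 929 and 857 in right lungs at 30 min and 891, 780 and 831 in right lungs at 3 h. Every one of the 12 operated lungs was above every control. It was 1.99-fold (adjusted p = 1.75e-05) and 1.93-fold (1.3e-05) higher in left lungs and 1.66-fold (0.000415) and 1.63-fold (0.000376) higher in right lungs, at 30 min and 3 h. The call held in all 4 groups without any 1 array and with the 3 arrays of raised actin ratio removed.

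Ube2g2 is the E2 that serves ligases of the endoplasmic reticulum in the disposal of misfolded proteins. Its signal was 253, 296 and 320 in controls, 472, 423 and 408 and then 552, 520 and 440 in left lungs at 30 min and 3 h, and 375, 463 and 427 and then 576, 418 and 508 in right lungs. Again no operated lung overlapped the controls. The rises were 1.48-fold and 1.70-fold in left lungs (adjusted p = 0.0032 and 0.000136) and 1.43-fold and 1.68-fold in right lungs (0.00808 and 0.000332). With the 3 arrays of raised actin ratio removed, the left 30 min value was 0.53 ± 0.19, with an adjusted p of 0.114.

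Rnf115, a ligase linked to the sorting of growth factor receptors at the endosome, had the narrowest controls, from 902 to 973 with a median of 938. Left lungs read 1539, 1457 and 1400 at 30 min and 1170, 1317 and 1246 at 3 h, and right lungs 1348, 1339 and 1382 and then 1285, 1350 and 1237. The rises were 1.55-fold and 1.32-fold in left and 1.43-fold and 1.37-fold in right lungs, with adjusted p between 5.55e-05 and 0.00119, and no array left out ended a call.

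Ube2k builds chains of the kind read by the proteasome. The probe set used read 842 to 1035 in controls and 1138 to 1477 in the operated lungs, 1.40-fold and 1.49-fold higher in left and 1.28-fold and 1.43-fold higher in right lungs (adjusted p = 0.00237, 0.000315, 0.0257 and 0.00155). At right 30 min the call was lost without 4 arrays, among them replicates 1 and 2 of that group (adjusted p 0.0502 to 0.102). The left 30 min call was lost with the 3 arrays of raised actin ratio removed, which leaves 1 left lung at that time. A second probe set of Ube2k did not bear the rise out. It was at log2 -0.10 ± 0.12 and -0.36 ± 0.12 in left and -0.12 ± 0.12 and -0.32 ± 0.12 in right lungs, of which left 3 h was called lower (adjusted p = 0.0225). The direction for Ube2k thus depends on the probe set.

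Ube2d1, an E2 that pairs with many RING ligases, read 222, 329 and 375 in controls, 160, 207 and 169 in left lungs at 30 min, 107, 144 and 153 in left lungs at 3 h, 180, 184 and 112 in right lungs at 30 min and 223, 176 and 176 in right lungs at 3 h. All but 1 of the 12 operated lungs lay below every control, the exception being at right 3 h. It was 1.66-fold and 2.12-fold lower in left lungs (adjusted p = 0.00535 and 0.000121) and 1.86-fold and 1.56-fold lower in right lungs (0.00188 and 0.0116). A second probe set gave the same direction with log2 differences of -0.86, -1.19, -1.02 and -0.60 (left 30 min, left 3 h, right 30 min, right 3 h), all 4 called (adjusted p 9.75e-06 to 0.00512). The right 3 h call of the first was lost without replicate 3 of that group (adjusted p = 0.0551), and with the actin ratio in the fit the left 30 min value was -0.44 ± 0.19 (adjusted p = 0.138).

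**Figure D3:**
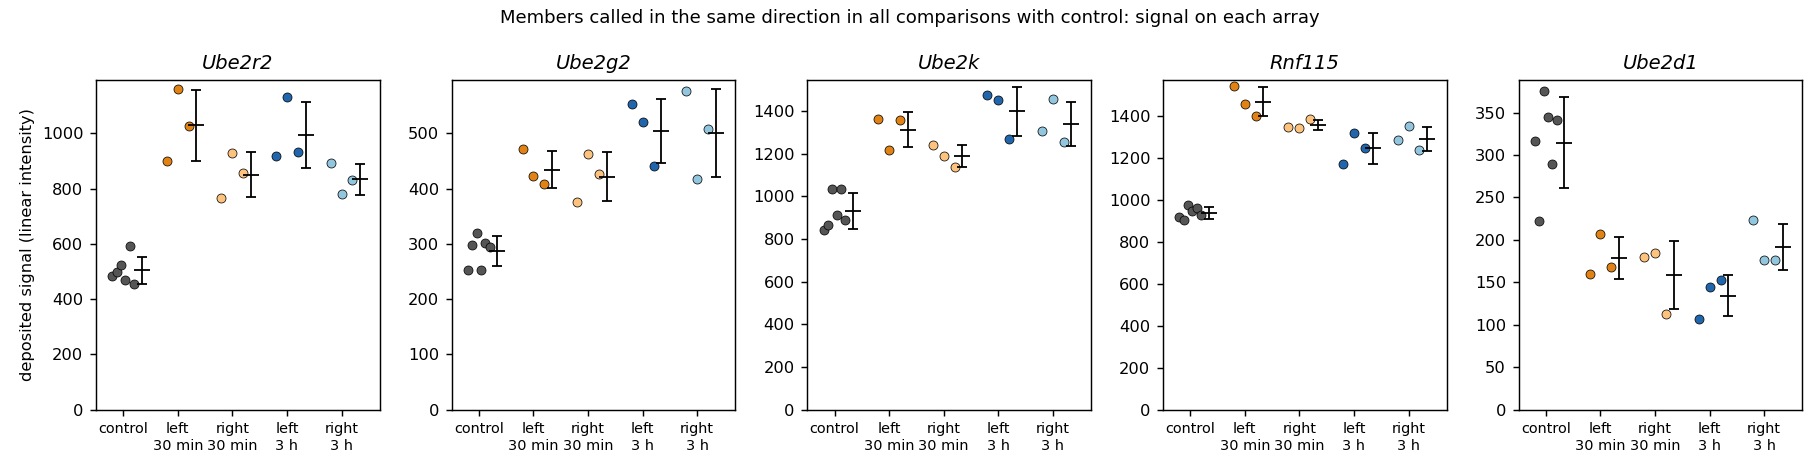
Deposited signal (linear intensity, each axis from 0) on each of the 18 arrays of the 5 members called in the same direction against control in all 4 operated groups; dots are arrays and the bar beside them is the mean ± SD. Ube2r2, Ube2g2, Ube2k and Rnf115 lie above all controls in every operated lung, and Ube2d1 lies below them in all but 1.

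The promoters of an E2 that rose in every group and of one that fell in every group, by the probe set used, are set side by side here. They are the 250 bases before the start of Ube2g2 (chr20:11005061-11005310, minus strand) and of Ube2d1 (chr20:17308209-17308458, plus strand), from RefSeq on build GRCr8, with CG in capitals. Ube2r2 and Rnf115 are named only.
Ube2g2: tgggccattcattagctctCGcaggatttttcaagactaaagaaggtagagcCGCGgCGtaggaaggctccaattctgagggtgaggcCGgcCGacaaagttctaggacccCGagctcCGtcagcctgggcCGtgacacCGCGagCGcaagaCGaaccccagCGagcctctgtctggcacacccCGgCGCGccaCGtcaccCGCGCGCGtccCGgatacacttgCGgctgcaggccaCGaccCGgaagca
Ube2d1: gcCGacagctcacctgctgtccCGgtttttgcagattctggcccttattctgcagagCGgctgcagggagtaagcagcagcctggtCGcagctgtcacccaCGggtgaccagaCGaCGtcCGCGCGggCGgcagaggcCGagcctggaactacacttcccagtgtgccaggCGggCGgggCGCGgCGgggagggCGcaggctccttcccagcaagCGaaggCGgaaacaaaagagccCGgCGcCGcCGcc
With 26 and 24 CG dinucleotides the windows are alike in that respect, although the transcripts moved in opposite directions. Promoters rich in CG were the rule among the members: the median of 117 member promoters with an entry was 20 CG dinucleotides and 61.2% G and C, beside 6 and 52.0% over 27457 promoters. The 27457 are all entries of the RefSeq promoter table, including genes not on the array, and the tested genes alone were not compared.

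The motifs searched in these windows, on both strands, were rare among the members and in all promoters. The heat shock element (GAA, TTC and GAA with NN between them) was in 1 member promoter, that of Cul1 (0.855%, beside 0.597% of all promoters). The cAMP response element (TGACGTCA) was in 4 (3.42% beside 1.7%), those of Fbxw9, Rnf166, Rnf44 and Rnf7. The AP-1 site (TGACTCA) was in 2 (1.71% beside 3.98%), an NF-kB-like site (GGG and TTCC with NNN between them) in 4 (3.42% beside 4.53%), an interferon response-like site (GAAA and GAAA with NN between them) in 2 (1.71% beside 3.29%), the E-box (CACGTG) in 4 (3.42% beside 5.79%), and the glucocorticoid response element (AGAACA and TGTTCT with NNN between them) in 0 (beside 0.00364%). The interferon response-like site was found in Fbxo27 and Fbxo7, and the NF-kB-like site in Rnf213, Rnf4, Ube2m and Ube3b. A match describes the letters only.

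Of the E1 enzymes, which stand at the head of the relay, only Uba6 was called. Uba6 is an E1 for ubiquitin beside the main one, Uba1, and charges Ube2z. It read 203, 259 and 403 in controls, 101, 139 and 153 in left lungs and 166, 188 and 118 in right lungs at 30 min, and 141, 158 and 185 in left lungs at 3 h. It was 1.95-fold lower in left lungs at 30 min (log2 -0.96 ± 0.18, adjusted p = 0.00157), 1.62-fold lower at 3 h (adjusted p = 0.0067) and 1.67-fold lower in right lungs at 30 min (adjusted p = 0.0132), and none of these 3 groups overlapped the controls. Without replicate 3 of the right lungs at 30 min, an array of raised actin ratio, that value was -0.58 ± 0.20 (adjusted p = 0.0739), and with the actin ratio in the fit left 30 min was -0.65 ± 0.21 (0.0554). Uba1 was at -0.21 ± 0.11 in left lungs at 3 h (adjusted p = 0.125), Uba2 at 0.12 ± 0.09 (0.282) and Uba3 at 0.33 ± 0.25 (0.302).

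Among the 24 E2 enzymes tested, 6 were higher (Ube2g2, Ube2j1, Ube2j2, Ube2k, Ube2l3 and Ube2r2) and 1 lower (Ube2d1) in left lungs at 3 h, beside 13.5% and 24.1% of all genes. The second probe set of Ube2k was called lower in this comparison. Their median log2 difference was 0.17 where that of all genes was -0.13. In right lungs at 3 h 5 were higher and 1 lower, beside 7.75% and 12.6% of all genes, with a median of 0.06 beside -0.05. Under the alternative settings the left 3 h count lay between 5 and 9 higher and between 0 and 2 lower, and the right 3 h count between 3 (with the cardiac marker mean in the fit) and 7 higher.

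Ube2j1 and Ube2j2 sit in the membrane of the endoplasmic reticulum and, like Ube2g2, take part in the disposal of misfolded proteins. Ube2j1 read 322, 374 and 427 in controls, 792, 650 and 682 in left lungs at 3 h, 524, 505 and 549 in right lungs at 3 h, and 366, 532 and 358 in left lungs at 30 min. All 6 lungs at 3 h were above every control, and the left ones above the right ones. It was 1.86-fold above control in left lungs at 3 h (log2 0.89 ± 0.14, adjusted p = 0.000116) and 1.40-fold in right lungs (0.48 ± 0.14, adjusted p = 0.0175). The difference between the sides was 0.41 ± 0.16 and did not pass (adjusted p = 0.177). The rise from 30 min to 3 h in left lungs (1.67-fold, adjusted p = 0.0205) was lost without left 30 min replicate 1 or 3 or left 3 h replicate 1 (adjusted p 0.0771 to 0.116), and the right 3 h call without its replicate 3 (0.067). Ube2j2 read 966 to 1084 in controls and 1441, 1390 and 1390 in left lungs at 3 h (1.38-fold, adjusted p = 0.00217). In right lungs at 30 min it read 1143, 1202 and 1532 (1.26-fold, adjusted p = 0.0388), a call that ended without 7 of the 18 arrays, and without replicate 3 of that group the value was 0.21 ± 0.10 (adjusted p = 0.203).

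Ube2l3 and Ube2g1 complete the list of E2s that were called by the probe set used. Ube2l3, the usual partner of HECT and RING-between-RING ligases, read 1140 to 1278 in controls, 1587, 1453 and 1539 in left lungs at 3 h and 1599, 1489 and 1539 in right lungs at 3 h, all above the controls. These rises were small (1.25-fold, adjusted p = 0.0371, and 1.26-fold, adjusted p = 0.0464), the right one was lost without 12 of the 18 arrays (0.0509 to 0.128), and a second probe set was at -0.21 ± 0.10 in right lungs at 3 h. Ube2l3 also rose 1.48-fold from left 30 min to left 3 h (adjusted p = 0.0316), where the second probe set was at -0.04 ± 0.12. This call was lost without any of 4 arrays (adjusted p 0.0582 to 0.168): left 30 min replicates 1 and 3 and left 3 h replicates 1 and 2. Ube2g1, a relative of Ube2g2, moved the other way at 30 min. It read 1302, 1623 and 1770 in controls, 1180, 925 and 1125 in left and 1174, 1172 and 1075 in right lungs, 1.46-fold and 1.37-fold lower (adjusted p = 0.00529 and 0.0214). The right lung call was lost without any 1 of its own 3 arrays (adjusted p 0.0503 to 0.0734). A second probe set of Ube2g1 was called lower at 30 min in left (-0.84 ± 0.15, adjusted p = 0.000759) and right lungs (-0.68 ± 0.15, 0.00542).

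**Figure D4:**
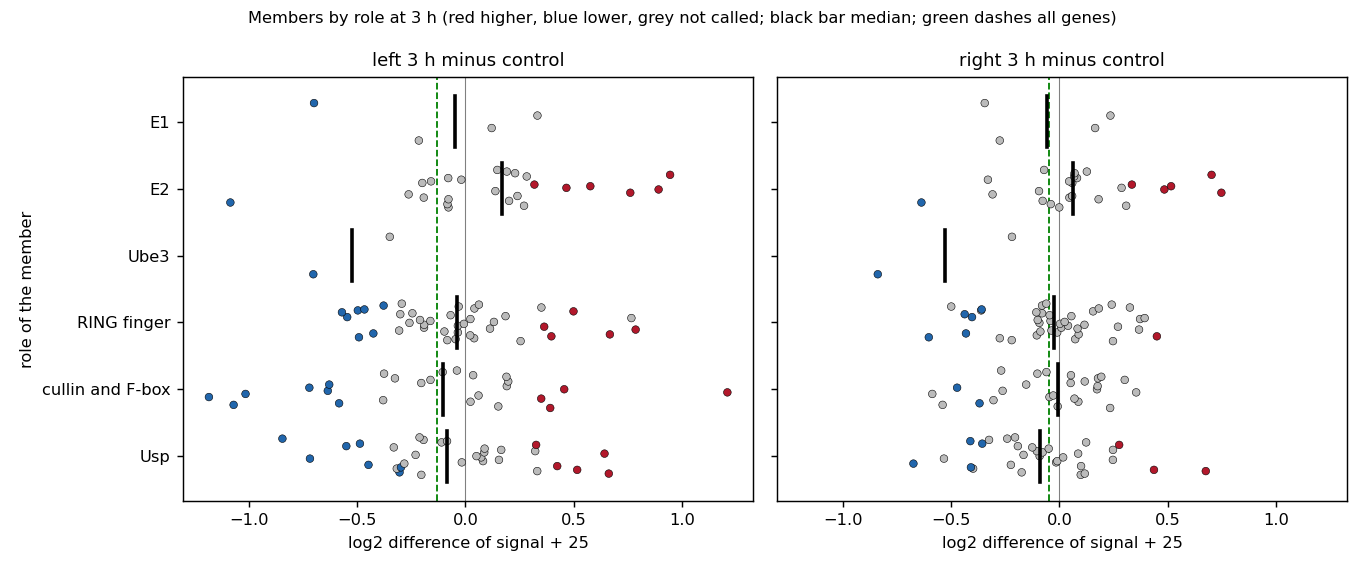
Log2 difference of signal + 25 from control at 3 h for the 126 members tested, by role, in left lungs (left panel) and right lungs (right panel); each dot is a gene, red called higher, blue called lower, grey not called, the black bar is the median of the role and the green dashed line the median of all 7726 genes. The E2 median in left lungs is 0.17, and the Ube3 row holds only 2 genes.

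The RING finger proteins, 40 of which were tested, had 5 higher and 7 lower in left lungs at 3 h (13.5% and 24.1% of all genes) and 1 higher and 5 lower in right lungs at 3 h (7.75% and 12.6% of all genes). Rnf138, a ligase of DNA double-strand break repair, was called higher in 3 groups by the probe set used. It read 191, 233 and 275 in controls, 483, 442 and 343 in left lungs at 3 h, 320, 325 and 389 in left and 465, 260 and 364 in right lungs at 30 min. The rise was 1.72-fold at left 3 h (log2 0.79 ± 0.15, adjusted p = 0.000987), 1.43-fold at left 30 min (0.0259) and 1.47-fold at right 30 min (0.0243), where 1 lung overlapped the controls. The 30 min calls were lost without 5 arrays in left lungs (adjusted p 0.0515 to 0.115) and without replicate 1 or 3 in right lungs (0.166 and 0.0674). A second probe set of Rnf138 was at 1.88 ± 0.33 in left lungs at 3 h (adjusted p = 0.000439), at 1.09 ± 0.33 in right lungs at 30 min (0.0373) and at 0.24 ± 0.33 in left lungs at 30 min, where it was not called (0.65). In right lungs at 3 h the probe set used was at 0.37 ± 0.15, without overlap with the controls and not called (0.1). The second probe set was called higher there (1.32 ± 0.33, adjusted p = 0.00984).

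Rnf25 and Rnf122 were called higher in clamped lungs. Rnf25 read 235 to 257 in controls, 465, 310 and 351 in left lungs at 30 min and, at 3 h, 380, 396 and 304, all above the controls (1.46-fold, adjusted p = 0.00371, and 1.41-fold, adjusted p = 0.0034). With the actin ratio in the fit the 30 min value was 0.40 ± 0.14 (adjusted p = 0.0823). Rnf122 read 320 to 408 in controls and 784, 462 and 533 in left lungs at 3 h (1.59-fold, adjusted p = 0.0163). Without the highest of these lungs, replicate 1, the value was 0.46 ± 0.22 (adjusted p = 0.146). Neither gene passed the test of left against right at either time.

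Falls among RING finger proteins were moderate and clearest at 3 h. Rnf123, a ligase for the cell cycle inhibitor p27, read 587 to 695 in controls, 410, 480 and 532 in left and 504, 435 and 469 in right lungs at 3 h, and no lung overlapped the controls (1.34-fold and 1.35-fold lower, adjusted p = 0.00389 and 0.0067). Its second probe set was at -0.15 ± 0.13 and -0.08 ± 0.13 and was not called at 3 h. Rnf34, which targets caspases, read 412 to 507 in controls, 312, 344 and 348 in left and 358, 384 and 345 in right lungs, 1.38-fold and 1.28-fold lower (adjusted p = 0.0008 and 0.00896). Rnf187 read 1105 to 1283 in controls, 628, 843 and 896 in left and 934, 905 and 759 in right lungs, 1.46-fold and 1.32-fold lower (0.00205 and 0.0231).

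Rnf114 and Rnf213 fell as well. Rnf114 was lower in left lungs at 3 h (1.41-fold, adjusted p = 0.0421) and overlapped the controls (399 to 708) with 362, 421 and 256 in right lungs at 3 h (1.52-fold lower, adjusted p = 0.0259), and without the lowest lung, replicate 3, the value was -0.42 ± 0.20 (0.166). Rnf213, a very large ligase also tied to interferon responses, read 465 to 617 in controls and 432, 326 and 419 in right lungs at 3 h (1.35-fold lower, adjusted p = 0.0423), a call lost without 7 arrays (0.0504 to 0.198). A second probe set of Rnf213 fell more, by 1.12 ± 0.15 in right and 1.01 ± 0.15 in left lungs at 3 h (adjusted p = 0.0001 and 0.000125). Rnf26 read 516 to 615 in controls and 316, 354 and 492 in left lungs at 3 h, all below the controls (1.41-fold lower, adjusted p = 0.0102). In left lungs at 30 min it read 432, 349 and 437 (1.33-fold lower, adjusted p = 0.0438), and this call was lost without 11 of the 18 arrays (0.0515 to 0.2).

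Of the HECT ligases of the Ube3 group, Ube3b was lower at 3 h on both sides. It read 276, 340 and 379 in controls, 125, 257 and 229 in left and 248, 108 and 198 in right lungs, with no overlap (1.63-fold lower, adjusted p = 0.0144, and 1.79-fold lower, adjusted p = 0.00934). In each group the lowest lung carried the call. Without replicate 1 of the left lungs the value was -0.42 ± 0.21 (adjusted p = 0.154), and without replicate 2 of the right lungs -0.54 ± 0.20 (0.0735). Ube3a did not pass the filter.

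Cullins and F-box proteins, 25 of which were tested, included the largest rise of any member by the probe sets used, that of Fbxo27 in left lungs at 3 h. A second probe set of Rnf138 rose more over control there (log2 1.88 ± 0.33). Fbxo27 belongs to the F-box proteins that recognise sugar chains on glycoproteins. Controls read 224, 262 and 301, left lungs at 30 min 317, 356 and 337, right lungs at 30 min 359, 352 and 319, left lungs at 3 h 900, 549 and 543, and right lungs at 3 h 311, 265 and 496. All 3 left lungs at 3 h were above every other lung. They were 2.31-fold above control (log2 1.21 ± 0.17, adjusted p = 6.35e-05), 1.81-fold above the right lungs (0.86 ± 0.20, adjusted p = 0.0316) and 1.85-fold above left lungs at 30 min (0.89 ± 0.20, adjusted p = 0.0251). The rise over control was called with each array left out (0.98 to 1.33).

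Fbxo27 was the only member called between left and right lungs at 3 h, beside 1.75% of all genes higher and 0.621% lower. That side difference lost its call without replicate 1 of the left lungs (0.62 ± 0.18, adjusted p = 0.194) and without replicate 1 or 2 of the right lungs (0.125 and 0.12). It also lost it with the cardiac marker mean in the fit (0.84 ± 0.28, adjusted p = 0.277). The cardiac marker mean differed between these groups without overlap. The difference from left 30 min was lost without replicate 1 or 3 at 30 min or replicate 1 at 3 h (adjusted p 0.0667 to 0.129).

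The falls of Fbxo21, Fbxo25 and Fbxo3 at left 3 h lost their calls without replicate 1 of that group. Fbxo21 read 206 to 248 in controls and 13.6, 212 and 128 in left lungs at 3 h (2.27-fold lower, adjusted p = 0.0126). Without the first lung the value was -0.42 ± 0.16 (adjusted p = 0.0669). Fbxo25 read 262 to 293 in controls and 63.8, 142 and 190 (2.02-fold lower, adjusted p = 0.00653), and -0.65 ± 0.26 without that lung (0.0791). Fbxo3, a ligase part that acts on Fbxl2 in inflammation, read 806 to 1022 in controls and 424, 646 and 752 (1.55-fold lower, adjusted p = 0.00634), and -0.41 ± 0.16 without it (0.076). A second probe set of Fbxo3 was called higher in the same comparison (0.40 ± 0.15, adjusted p = 0.0429), so its direction depends on the probe set.

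Fbxo31 and Fbxo38 fell in all 3 left lungs alike. Fbxo31, which takes part in the arrest of the cell cycle after DNA damage, read 205 to 290 in controls and 162, 142 and 137 in left lungs at 3 h (1.65-fold lower, adjusted p = 0.0025). In right lungs at 3 h it read 226, 187 and 133, which overlaps the controls (1.39-fold lower, adjusted p = 0.0457, lost without 11 of the 18 arrays at 0.0503 to 0.268). Fbxo38 read 753 to 996 in controls and 471, 657 and 514 (1.55-fold lower, adjusted p = 0.00323). Fbxo30 rose in left lungs, from 119 to 161 in controls to 197, 247 and 183 at 30 min (1.42-fold, adjusted p = 0.0157) and to 268, 162 and 180 at 3 h (1.37-fold, adjusted p = 0.0162). The 30 min call was lost without replicate 2 (0.40 ± 0.16, adjusted p = 0.102). All 6 controls lie below the filter signal of 173.6, so Fbxo30 was tested only because operated lungs were high, and its rise is in part fixed by that filter.

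Cullins themselves moved apart. Cul1, the scaffold of the SCF ligases, read 1307 to 1446 in controls and was higher in left lungs at 30 min (1692, 1594 and 1630, 1.19-fold, adjusted p = 0.0474) and at 3 h (1740, 2012 and 1694, 1.31-fold, adjusted p = 0.00202). Cul4a and Cul4b, scaffolds that bind substrates through Ddb1, were lower. Cul4b read 593 to 680 in controls, 419, 361 and 468 in left lungs at 3 h (1.50-fold lower, adjusted p = 0.000708) and 568, 459 and 433 in right lungs at 3 h (1.29-fold lower, adjusted p = 0.0239). Cul4a read 353 to 564 in controls and 308, 173 and 156 in left lungs at 3 h (2.10-fold lower, adjusted p = 0.0113), and this call was lost without replicate 2 or 3 (adjusted p = 0.0519 and 0.0539). In right lungs at 3 h Cul4a spread from 197 to 693.

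Ubiquitin-specific proteases, 31 of which were tested, had 5 higher and 7 lower at left 3 h, beside 13.5% and 24.1% of all genes, and 3 higher and 4 lower at right 3 h, beside 7.75% and 12.6%. Usp8, which frees receptors from ubiquitin at the endosome, was called lower in left lungs at both times. It read 845, 942 and 1055 in controls, 526, 527 and 583 in left lungs at 30 min and, at 3 h, 344, 665 and 589, with no overlap. It was 1.70-fold lower at 30 min (log2 -0.76 ± 0.17, adjusted p = 0.00468) and 1.80-fold lower at 3 h (-0.84 ± 0.17, adjusted p = 0.00115), and no array left out ended either call. Right lungs read 619, 902 and 599 at 30 min and 920, 794 and 684 at 3 h, which reach into the controls. The Usp8 difference between the sides at 3 h was -0.60 ± 0.20 and did not pass (adjusted p = 0.118). No protease of this group was called between the sides at either time. Usp46 fell likewise in left lungs, from 309 to 443 in controls to 229, 261 and 265 at 30 min and 261, 229 and 240 at 3 h (1.42-fold and 1.46-fold lower, adjusted p = 0.00649 and 0.00192). With the actin ratio in the fit the 30 min values were -0.65 ± 0.22 for Usp8 (adjusted p = 0.0653) and -0.40 ± 0.15 for Usp46 (0.096).

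Other proteases fell at 3 h. Usp30, which sits on the outer membrane of mitochondria, read 381 to 497 in controls and 216, 306 and 244 in left lungs (1.64-fold lower, adjusted p = 0.00869, lost without replicate 1 at 0.0622). Usp21 read 576 to 775 in controls and 468, 348 and 433 in right lungs (1.60-fold lower, adjusted p = 0.00859, lost without replicate 2 at 0.0509). Usp48 read 670 to 866 in controls and was 1.40-fold lower in left (510, 514 and 571, adjusted p = 0.0037) and 1.28-fold lower in right lungs (654, 563 and 540, adjusted p = 0.0364). Usp54 read 497 to 643 in controls and 340, 494 and 395 in left lungs at 30 min (1.38-fold lower, adjusted p = 0.031), where the call was lost without 5 arrays, and 474, 427 and 366 in right lungs at 3 h (1.33-fold lower, adjusted p = 0.0487), where it was lost without 10 arrays. Usp19, part of which is anchored in the endoplasmic reticulum, read 670 to 774 in controls and 542, 592 and 640 in left lungs at 3 h (1.23-fold lower, adjusted p = 0.0444). In right lungs at 3 h Usp19 read 613, 472 and 557, also below every control (1.33-fold lower, adjusted p = 0.0155). The left lung call was lost without 7 arrays (0.0587 to 0.195), and there a second probe set was called higher (0.32 ± 0.11, adjusted p = 0.0284). In right lungs at 3 h the second probe set was at 0.16 ± 0.11 and not called (0.339). It was also called higher in left lungs at 30 min (0.54 ± 0.11, 0.00259), so the direction for Usp19 depends on the probe set.

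Usp2, Usp15, Usp12, Usp36 and Usp10 were called higher. All controls of Usp2 and all but 1 of Usp12 lie below the filter signal of 173.6, so these genes were tested only because operated lungs were high, and their rise is in part fixed by the filter. Usp2, whose transcript follows the circadian clock, read 128 to 167 in controls, 275, 179 and 221 in left and 275, 168 and 253 in right lungs at 30 min (1.47-fold and 1.50-fold, adjusted p = 0.0121 and 0.013). Its calls were lost without replicate 1 in left lungs (0.0958) and without replicate 1 or 3 in right lungs (0.0879 and 0.0551). Usp15, which acts on TGF-beta receptors, read 235 to 254 in controls, 405, 341 and 346 in left lungs at 3 h (1.43-fold, adjusted p = 0.00268), 354, 394 and 286 in right lungs at 3 h (1.35-fold, 0.0141) and 351, 302 and 390 in right lungs at 30 min (1.37-fold, 0.0173), with no overlap. The right lung calls were lost at 3 h without replicate 2 (0.0807) and at 30 min without replicate 1 or 3 (0.0615 and 0.081).

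Usp12, a relative of Usp46 that shares its activating partner (the WD40 protein Wdr48), read 127 to 176 in controls and 291, 312 and 198 in right lungs at 3 h, all above the controls (1.60-fold, adjusted p = 0.00166). Left lungs were at 132, 140 and 113 at 30 min and 181, 203 and 223 at 3 h, a rise of 1.48-fold between the times (adjusted p = 0.0465) that was lost without 12 of the 18 arrays (0.0517 to 0.157). Usp36, a protease of the nucleolus, read 732 to 879 in controls and 1382, 1237 and 1177 in left lungs at 3 h (1.56-fold, adjusted p = 0.0155, lost without replicate 1 at 0.0787). Usp10, which acts on p53, read 449 to 629 in controls and 1000, 981 and 594 in left lungs at 3 h, which overlaps them (1.58-fold, adjusted p = 0.0406, lost without 6 arrays at 0.0609 to 0.188).

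Between 30 min and 3 h, by the probe sets used, 5 members rose in left lungs (Rnf144b, Fbxo27, Ube2j1, Ube2l3 and Usp12) and 1 fell (Mylip), beside 1.23% and 1.84% of all genes. Only Rnf144b was still called without left 30 min replicate 1, without left 30 min replicate 3, without left 3 h replicate 1, or with the actin ratio in the fit, 1 member in each case. Without left 30 min replicate 2 there were 11. In right lungs limma called 0 members between the times by the probe sets used, with 10 at an unadjusted p under 0.05, beside 0.0129% of all genes higher and 0.181% lower. A further probe set of Rnf213 was called lower at 3 h in left (-1.35 ± 0.18, adjusted p = 0.000486) and right lungs (-1.32 ± 0.18, 0.00991). In left lungs further probe sets of Rnf138 (1.64 ± 0.38, 0.0316), Ube2h (0.73 ± 0.18, 0.0347) and Rnf4 (0.69 ± 0.15, 0.0251) were called higher. Another of Rnf4 was at -0.03 ± 0.14.

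A gene with several probe sets is a check on these values, since each reads its own stretch of the transcript. Of 26 further probe sets of members that passed the filter, 18 had the sign of the one used at left 30 min, 17 at left 3 h, 17 at right 30 min and 15 at right 3 h. At left 3 h, 11 had a partner that was called, 4 were called with it and 3 against it (Fbxo3, Ube2k and Usp19). Other members not called by the probe set used had one that was, a pattern chosen here after its values were seen. A further probe set of each of Usp1, Usp9x and Ube2b was called lower in all 4 operated groups. That of Usp1 was at -1.12 ± 0.17 in left lungs at 30 min (adjusted p = 0.000245). Of 2 further probe sets of Usp9x, this one was at -0.91 ± 0.14 in left lungs at 3 h (0.000132), the other at 0.13 ± 0.16. That of Ube2b was at -0.49 and -0.37 in left and -0.43 and -0.34 in right lungs (adjusted p 0.00735 to 0.0428). The probe set used for Ube2b was at 0.27 ± 0.13 in left and 0.31 ± 0.13 in right lungs at 3 h.

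**Figure D5:**
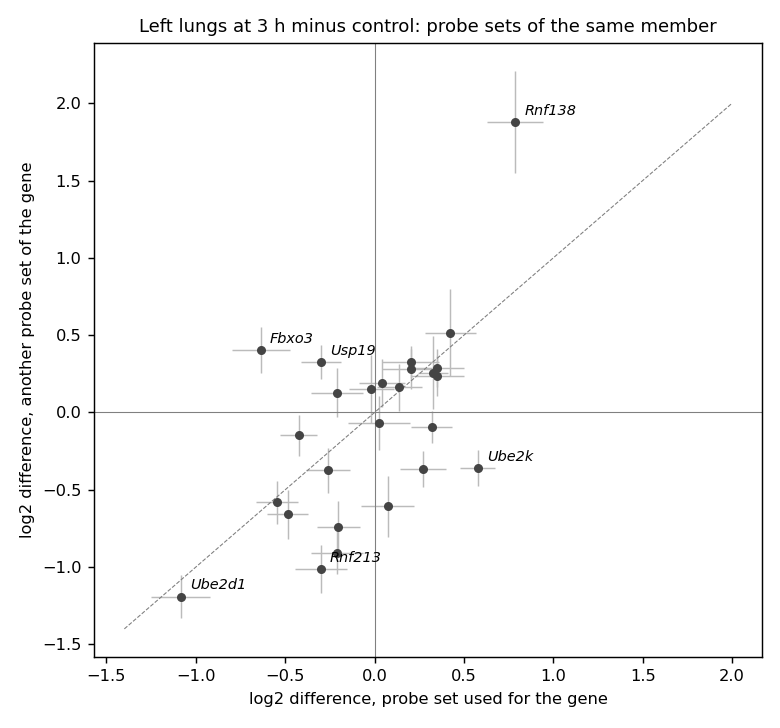
Log2 difference from control in left lungs at 3 h of the probe set used for a member (horizontal) against a further probe set of the same gene (vertical), for 26 further probe sets; bars are standard errors and the dashed line marks equal values. Ube2d1 and Rnf138 lie in the quadrants of like sign, and Fbxo3, Usp19 and Ube2k in those of opposite sign.

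Other genes of the ubiquitin system were followed through a list of 111 symbols (further ligases, proteases of other families, ubiquitin-like proteins and chain readers), of which 74 were tested. At 30 min, 11 were higher and 3 lower than control in left lungs (8.65% and 9.51% of all genes), and 4 higher and 3 lower in right lungs (5.93% and 6.3%). At 3 h, left lungs had 18 higher and 16 lower (13.5% and 24.1% of all genes), and right lungs 5 higher and 9 lower (7.75% and 12.6%). The list's median log2 difference at left 3 h was 0.03, beside -0.13 for all genes.

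Several ligases of stress and cell death signalling were called. Mdm2, the ligase of p53, ran from 222 to 377 in controls, from 557 to 1128 in left lungs at 30 min, from 1391 to 1723 in left and from 511 to 609 in right lungs at 3 h. It was 2.24-fold above control in left lungs at 30 min (adjusted p = 0.00434), 4.56-fold at 3 h (log2 2.19 ± 0.25, adjusted p = 1.14e-05) and 1.73-fold in right lungs at 3 h (0.0358). Birc3, a ligase of the inhibitor of apoptosis family, ran from 247 to 335 in controls and from 674 to 1639 in left lungs at 3 h (3.27-fold, adjusted p = 4.87e-05). Xiap, of the same family, went down in every operated group: it ran from 141 to 308 in controls and from 45.4 to 80.6 in left lungs at 30 min (2.73-fold lower, adjusted p = 0.000521). Its operated lungs all lie below the filter signal, so it was tested only because controls were high, and its fall is in part fixed by that filter. In right lungs Xiap was 2.07-fold and 1.92-fold lower (0.00854 and 0.0104), and the 3 h call was lost without replicate 3 (0.0589).

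Mdm2, Birc3 and Peli1, a ligase of Toll-like receptor signalling, were the 3 of the list that were higher in left than in right lungs at 3 h (2.64-fold, 2.55-fold and 1.50-fold, adjusted p = 0.0196, 0.015 and 0.0152). Each of these calls was lost without left replicate 1 or right replicate 1 or 2 (adjusted p 0.0586 to 0.11 for Mdm2, 0.0654 to 0.0828 for Birc3 and 0.0583 to 0.0996 for Peli1) and with the cardiac marker mean in the fit (0.0639, 0.155 and 0.131). Of SUMO enzymes, the ligase Pias3 was 2.02-fold lower (adjusted p = 9.11e-05) and the protease Senp2 1.63-fold higher (0.000255) in left lungs at 3 h. Josd2, a protease of the Josephin family whose operated lungs also lie below the filter signal, was 3.25-fold lower (0.000193), and Arih1, a RING-between-RING ligase, 2.25-fold higher (0.000257) there. The fall of Josd2 is likewise in part fixed by the filter. In right lungs at 3 h, Syvn1, the main ligase of the endoplasmic reticulum, was 1.72-fold lower (0.000257) and Ufd1, which helps to draw proteins out of that membrane, 1.38-fold higher (0.00326).

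The members called at left 3 h and not described so far are given by their log2 difference. Rnf220 (log2 -0.57), Usp20 (-0.45), Rnf5 (-0.38) and Usp11 (-0.30) were lower, and Fbxo11 (0.35) and Usp47 (0.33) were higher. The 15 members that did not pass the filter were Cul2, Fbxo16, Fbxo2, Fbxo32, Fbxo39, Rnf112, Rnf113a1, Rnf126, Rnf182, Rnf207, Ube2d2b, Ube2t, Ube3a, Usp25 and Usp42. Their signals are too low on these arrays for a test.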

How the data were processed

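Per the submitters' processing notes, the deposited values are MAS5 signals (linear intensity, one per probe set); the MAS5 version and genome build are not given in the sources used here, and the series text names GeneSpring 7.2 for later analysis. Each array has a 2% trimmed mean of 500.1 and a median signal of 232.3 to 283.8, and no further scaling was applied. Analysis used log2(signal + 25), which understates changes of low signals, and levels of different probe sets were not compared. Symbols came from the 2016 platform annotation; 0 member symbols differed in RefSeq. A fit of 5 group means over all 18 arrays was made in limma 3.58.1 (R 4.3.3), with lmFit and eBayes, two-sided, Benjamini-Hochberg over 10533 tested probe sets within each comparison. Errors are limma standard errors, and folds are 2 to the power of the log2 difference. The fit was tested on simulated data. Python 3.11.15 made the tables.

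Values are given for the called members of largest change in each comparison (up to 8 rises and 8 falls against control, up to 6 otherwise, all where at most 5 were called) whose arrays all lay on one side of the other group's mean, for those called in all 4 groups, for those with a called change of the side difference or a probe set called the opposite way, and for up to 6 listed pathway genes of smallest adjusted p; others are named in passing. The members and gene lists were chosen with earlier results of these data known. Left and right lungs came from the same rats, but the labels do not say that a number marks a rat, so they were fitted as independent. Deviations of same-numbered lungs correlated at 0.12, 0.31 and 0.15 at 30 min and at -0.17, 0.07 and -0.15 at 3 h. The highest differently numbered pair was at 0.099 at 30 min and at 0.34 at 3 h, there above every same-numbered pair. With 3 lungs in a group, these values cannot show whether a number marks a rat. A fit with the replicate block is given as an alternative. The number of arrays limits the precision.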

Additional observations from a re-analysis of the deposited data

Results flagged for a closer look

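The difference between left and right lungs changed from 30 min to 3 h in Mylip, by -1.095 ± 0.195 on the log2 scale (limma, adjusted p = 0.0213), and in Rnf144b, by 0.9647 ± 0.192 (adjusted p = 0.0443). Both were singled out because the test of the change itself passed. In Mylip the left lungs were above the right lungs at 30 min in all 3 against 3 arrays and level with them at 3 h, and in Rnf144b they were below at 30 min and level at 3 h. In none of the 38 members named by rule did a control array lie far enough from the other 5 to be marked by Dixon's criterion (0.625).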

How the results depend on the processing

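Of 105 tested differences of named members and pathway genes, recomputed in 3040 checks, 2714 kept direction and call, 318 kept direction and lost the call, and 8 turned direction. All 8 came from a second probe set of the gene: Ube2k at -0.10 (left 30 min), -0.36 (left 3 h), -0.12 (right 30 min) and -0.32 (right 3 h), Fbxo3 at 0.40 and Usp19 at 0.32 (left 3 h), and Ube2l3 at -0.21 (right 3 h) and -0.038 (left 3 h against 30 min). Without the 3 arrays of high actin ratio, called members fell from 21 to 3 at left 30 min, from 11 to 7 at right 30 min, from 2 to 0 between the sides at 30 min and from 6 to 0 between the times in left lungs, and 1 left lung at 30 min is then assumed to vary like the other groups. With the actin ratio as a covariate, 10 were called at left 30 min and 1 between the times in left lungs. With the cardiac marker mean as a covariate, 8 were called at right 3 h and 0 between the sides at 3 h. Without the filter 0 were called between the sides at 3 h, and with the second probe set 1 between the times in right lungs. Leaving out 1 array at a time gave 14 to 23 members at left 30 min, 27 to 49 at left 3 h, 6 to 14 at right 30 min, 13 to 24 at right 3 h, 1 to 2 between the sides at 30 min, 0 to 5 at 3 h, 1 to 11 between the times in left and 0 to 1 in right lungs. Pseudocounts, filters and scalings otherwise left each count within 1.5 times. Deviations of same-numbered left and right lungs correlated at 0.12, 0.31 and 0.15 at 30 min, each above every differently numbered pair. At 3 h the correlations were -0.17, 0.07 and -0.15, and the highest differently numbered pair was at 0.34. These values cannot show whether a number marks a rat. A fit with the replicate block called 22, 48, 14 and 28 members against control and, of the named values, ended only the call of the Rnf144b change of side difference (0.96, adjusted p = 0.0888). The Rnf144b side difference at 30 min then had an adjusted p of 0.0497.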
